A study of Mus musculus with 141 samples.

Results

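The collagen genes are the protein-coding genes whose symbol is built as Col, a type number, the letter a and a chain number, and 44 of the 36558 genes in the deposited tables met that rule. The rule reads the symbol and uses no measured value. For description they were sorted by the assemblies their chains form. There were 11 fibrillar genes, 6 genes of the basement membrane network (type IV) and 3 of the basement membrane zone (*Col7a1*, *Col15a1* and *Col18a1*). A further 6 genes encode beaded filaments (type VI), 9 encode fibril-associated collagens with interrupted triple helices (FACIT), 3 encode short chain networks and 4 encode transmembrane collagens, while *Col26a1* and *Col28a1* were kept apart as other collagens.

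RNA-seq libraries of subcutaneous adipose tissue, the inguinal fat pad (iWAT), came from inbred mice of the Hybrid Mouse Diversity Panel, a collection of classical and recombinant inbred strains. All mice ate chow until 8 weeks of age and then a high-fat, high-sucrose diet for 8 weeks, and tissue was taken after a 4 h fast, so no group stayed on chow. The groups were sex and strain. There were 67 female and 74 male libraries of 82 strains, with 1 library per sex and strain, and 59 strains had both sexes. Of the 82 strains, 40 were BXD (bred from C57BL/6J and DBA/2J), 24 classical inbred, 11 AXB/BXA (from A/J and C57BL/6J), 4 BXH (from C57BL/6J and C3H/HeJ) and 3 CXB (from BALB/cBy and C57BL/6By). The line BXD24/TyJ-Cep290<rd16>/J, which by its name carries the rd16 allele of *Cep290*, was counted among the BXD strains in both sexes. Each title holds 1 mouse number, and no label gives a batch.

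Library depth ran from 6269154 to 39543043 estimated counts in females and from 11747373 to 78562648 in males. The tissue label was checked against adipocyte markers, whose summed level had a median of 31255 TPM (transcript abundance scaled to a fixed library total) in females and 41395 in males. 3 libraries went against the sex in their label by the summed level of *Ddx3y*, *Eif2s3y*, *Kdm5d* and *Uty*, which lie on the Y chromosome. The library labelled BXD34/TyJ female had 794 CPM (counts scaled by library size) and the one labelled BXD69/RwwJ female 372, where the other 65 female libraries reached at most 35.7. The library labelled NZW/LacJ male had 9.36 CPM, where the other 73 male libraries had at least 164. Both female libraries have no male partner and lay outside the tests of sex and strain, and values without the 3 libraries are given below for the levels they set and for the relations across libraries. The library labelled BXD34/TyJ female was also the shallowest, with 29.9% of its counts on mitochondrially encoded genes.

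Collagens are secreted proteins whose alpha chains wind into a triple helix. Fibrillar types I, III and V build the fibres of connective tissue, type IV forms the sheet-like basement membrane that wraps every adipocyte and every blood vessel, and type VI forms microfibrils that link the basement membrane to the fibres. FACIT collagens sit on fibrils, and transmembrane collagens such as type XVII anchor epithelial cells. In adipose tissue this matrix bears the load of enlarging adipocytes, and type VI collagen is known as one of its abundant parts.

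Type IV chains are encoded by gene pairs that lie head to head, and the promoters of 2 such pairs are shown because the members of one pair had closely parallel levels across libraries and those of the other less so. Sequences are from RefSeq on GRCm38.p6, from 250 bases before to 50 after each start, and capitals mark matches to CCAAT, whose form on the other strand reads ATTGG, and matches to GGGCGG, whose form on the other strand reads CCGCCC. *Col4a1* (chr8:11312777-11313076, minus strand) and *Col4a2* (chr8:11312555-11312854, plus strand) have windows that share 78 bases. *Col4a5* (chrX:141475169-141475468, plus strand) and *Col4a6* (chrX:141474027-141474326, minus strand) have windows with 842 bases between them.

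Col4a1: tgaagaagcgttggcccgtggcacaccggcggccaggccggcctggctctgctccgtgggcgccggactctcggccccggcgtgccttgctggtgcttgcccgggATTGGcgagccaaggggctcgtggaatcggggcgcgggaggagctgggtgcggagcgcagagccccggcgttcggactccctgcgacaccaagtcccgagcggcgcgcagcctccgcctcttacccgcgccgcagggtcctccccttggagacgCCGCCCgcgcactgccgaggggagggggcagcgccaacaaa

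Col4a2: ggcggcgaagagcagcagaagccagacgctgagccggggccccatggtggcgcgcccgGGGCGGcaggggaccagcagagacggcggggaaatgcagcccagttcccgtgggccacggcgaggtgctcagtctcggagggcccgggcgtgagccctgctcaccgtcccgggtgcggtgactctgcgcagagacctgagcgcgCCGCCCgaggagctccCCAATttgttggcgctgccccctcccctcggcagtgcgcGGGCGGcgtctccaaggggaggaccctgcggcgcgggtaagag

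Col4a5: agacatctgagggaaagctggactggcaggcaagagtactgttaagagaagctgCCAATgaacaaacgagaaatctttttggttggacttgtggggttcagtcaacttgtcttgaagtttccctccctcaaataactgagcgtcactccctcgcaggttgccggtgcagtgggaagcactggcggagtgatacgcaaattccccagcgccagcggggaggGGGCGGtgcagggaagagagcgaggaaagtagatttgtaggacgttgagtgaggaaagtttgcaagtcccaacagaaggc

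Col4a6: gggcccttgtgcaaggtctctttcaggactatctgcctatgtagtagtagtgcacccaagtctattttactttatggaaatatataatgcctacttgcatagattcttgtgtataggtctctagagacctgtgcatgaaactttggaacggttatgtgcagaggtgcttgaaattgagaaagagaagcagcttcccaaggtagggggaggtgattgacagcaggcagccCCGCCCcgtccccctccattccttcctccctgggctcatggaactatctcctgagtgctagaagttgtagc

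CCAAT was found once each in the windows of *Col4a1*, *Col4a2* and *Col4a5* and not in that of *Col4a6*, and GGGCGG was found 3 times in that of *Col4a2* and once in each of the others. A promoter was matched for 35 of the 44 collagen genes. GGGCGG was present in 62.9% of those 35 and in 35.7% of all 32851 promoters in the table, CCAAT in 34.3% against 37.4%, and TATAAA, read as TTTATA from the other strand and sharing no overlap with the other motifs, in 14.3% against 13.6%.

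The summed level of the 44 genes had a median of 2642 TPM in females (570 to 6492) and of 3632 TPM in males (1054 to 7897). Without the 3 libraries that went against their label, the medians were 2642 TPM (570 to 6456) and 3638 TPM (1144 to 7897). In 39 of the 59 strains with both sexes the male library had the higher sum. Fibrillar genes made up a median of 55.8% of collagen TPM in females and 53.2% in males, the basement membrane network 16.6% and 19.6%, beaded filaments 13.999% and 14.5% and the basement membrane zone 9.32% and 9.72%. FACIT genes made up 2.22% in females and 1.03% in males, and transmembrane collagens 0.360% and 0.0898%.

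*Col3a1*, which encodes the type III fibril chain, had the highest level of all collagen genes. It ranged from 79.6 to 2643 TPM around a median of 894 in females, and from 307 to 3136 TPM around 1272 in males. The basement membrane chain *Col4a1* followed, at 45.8 to 956 TPM (median 267) in females and 99.6 to 957 TPM (median 452) in males. Both genes had overlapping ranges in females and males, with lows in BXD34/TyJ among the females.

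*Col15a1*, a basement membrane zone collagen, had a median of 228 TPM in females (26.8 to 571) and 308 TPM in males (57.03 to 569). *Col4a2*, the partner chain of *Col4a1*, stood at 168 TPM (25.9 to 750) and 295 TPM (54.2 to 671). The type I chain *Col1a2* had medians of 202 TPM (19.4 to 547) and 246 TPM (74.2 to 542). In these 3 genes the male median lay above the female one and the ranges overlapped almost completely.

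*Col6a3*, the large chain of type VI collagen, had medians of 141.6 TPM in females (23.1 to 322) and 196 TPM in males (63.4 to 431). Its partners *Col6a1* and *Col6a2* had 127.4 TPM (23.7 to 315) and 117.9 TPM (14.3 to 313) in females, and 164 TPM (46.9 to 318) and 163 TPM (42.7 to 365) in males. *Col1a1*, the other type I chain, had 165 TPM (21.8 to 443) and 177 TPM (47.6 to 509), so its medians were closer than those of the type VI genes. *Col5a3*, a type V chain, had 86.6 TPM (9.98 to 313) in females and 146 TPM (21.1 to 363) in males.

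Leaving out the 3 libraries with the conflicting Y-linked level shifted the median of these 10 genes by at most 2.21% in males and by less than that in females. The lowest female values then came from MA/MyJ or BXD14/TyJ, with 171 TPM of *Col3a1* in BXD14/TyJ and 69.05 TPM of *Col4a1* in MA/MyJ. The female maxima became 789 TPM for *Col4a1*, 618 TPM for *Col4a2* and 519 TPM for *Col15a1*, in place of values from the library labelled BXD69/RwwJ female. In males, the lowest values became 127.5 TPM for *Col4a1*, 68.5 TPM for *Col4a2*, 77.1 TPM for *Col1a2* and 50.4 TPM for *Col1a1*. At the other end, *Col2a1*, the fibril chain of cartilage, and *Col10a1*, of growth plate cartilage, were near the detection limit. For *Col2a1*, 41 of the 67 female and 54 of the 74 male libraries held 3 or fewer counts, and for *Col10a1* 48 and 36 did.

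1 library set the maximum of 6 low or moderate collagens. The library labelled BXD34/TyJ female had 174 TPM of *Col4a3*, where the other female libraries reached 20.9, and 13.96 TPM of *Col25a1*, where they reached 1.37. Its *Col22a1* level was 5.64 TPM against at most 0.492, and its *Col19a1* level 2.73 TPM against at most 0.174. It was also highest for *Col11a1* (10.8 TPM against at most 10.7) and *Col26a1* (7.25 TPM against at most 5.61).

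**Figure D1:**
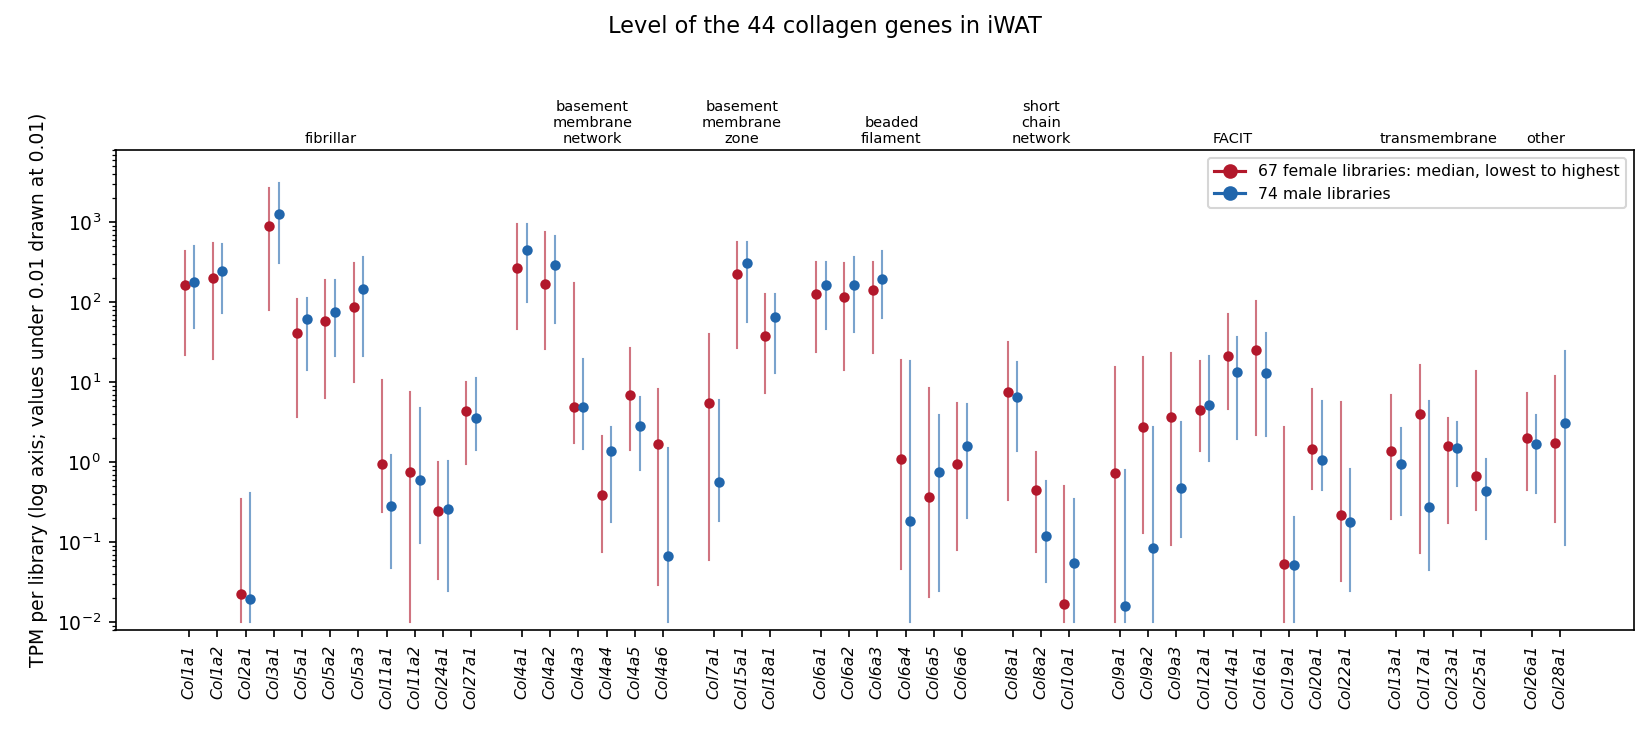
TPM of the 44 collagen genes (log axis) by class; points are medians and lines run from the lowest to the highest of 67 female (red) and 74 male (blue) libraries, with values under 0.01 drawn at 0.01. Col3a1 is highest in both sexes (medians 894 and 1272 TPM), and the largest gaps between the female and male medians are in Col9a1, Col9a2, Col4a6, Col17a1 and Col7a1, where the female median is higher.

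Sex differences were tested between the female and male libraries of the 59 strains, with strain in the model. Collagen genes changed in both directions, and 4 of the 8 classes held genes of either direction. The abundant type I, III, V and VI chains and the type IV pair *Col4a1* and *Col4a2* were lower in females, by up to 1.82-fold for *Col5a3*, except for *Col1a1*, which did not pass the test. Type IX, VII and XVII chains and *Col4a6*, all of low level, were higher in females by 8.91-fold (*Col9a3*) to 25.2-fold (*Col4a6*), leaving out *Col9a1* and *Col9a2*, whose male medians were 1 and 4 counts, so that the size of their fitted folds is uncertain. Of the 41 collagen genes that passed the filter on low counts (*Col2a1*, *Col10a1* and *Col19a1* did not), 18 were higher and 18 lower in females at an adjusted p under 0.05 (edgeR quasi-likelihood test), and 5 did not pass. Of all 16765 genes tested, 58.1% were called, 28.4% higher and 29.8% lower, so 36 of 41 is above the share over all genes and the directions are split evenly. The median log2 fold change, female over male, was -0.04 over the 41 genes and 0.01 over all genes tested (0.12 over all genes when scaled by library totals instead). The TPM ranges of the matched female and male libraries overlapped for each of the 41 collagen genes, with and without NZW/LacJ. Of all genes, 0 had ranges apart in the 59 strains, a count that rests on the library labelled NZW/LacJ male, since without that strain 4 genes did not overlap, *Ddx3y*, *Eif2s3y*, *Kdm5d* and the estrogen sulfotransferase *Sult1e1*, all higher in males.

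Of the 10 genes with the highest median TPM, 9 were lower in females, none was higher and *Col1a1* did not pass. Markers of other cell types moved with sex as well. All 9 mammary epithelium markers were higher in females, with a summed median of 582 TPM (1.70 to 4572) in females and 3.33 TPM (0.380 to 554) in males. Without the 3 libraries that went against their label, the lowest female sum was 98.1 TPM and the highest male sum 285 TPM. *Krt14* and *Krt5*, which define the basal layer of mammary epithelium, had a male median of 0. All 5 adipocyte, 4 endothelial and 4 macrophage markers were lower in females, with summed medians of 31255 against 41395, 287 against 384 and 112.1 against 160 TPM. Other lists went both ways. Of 5 stromal progenitor markers 2 were higher and 1 lower in females (summed medians 376 and 380 TPM). Of 5 mural markers 2 were higher and 2 lower (407 and 410 TPM). The part of these markers in the sex differences was not tested, and in whole tissue fewer cells of a type and less RNA per cell cannot be told apart.

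Among the 10 fibrillar genes tested, 3 were higher and 6 lower in females. *Col3a1* had a mean of 1080 ± 647 TPM in females and 1302 ± 672 TPM in males (SD, n = 59), and its log2 fold change was -0.39 ± 0.14 (SE, adjusted p = 0.011), with the male library higher in 40 of 59 strains. *Col5a3*, whose product joins type V fibrils, fell more, at -0.86 ± 0.14 (adjusted p = 3.7e-07, lower in the female library of 51 strains). The other type V chains *Col5a1* and *Col5a2* had -0.60 ± 0.12 and -0.38 ± 0.12 on the same scale. For type I, *Col1a2* had -0.29 ± 0.11 (adjusted p = 0.016), while *Col1a1* had -0.14 ± 0.12 (adjusted p = 0.34), with means of 187.5 ± 101.8 and 189 ± 92.8 TPM. This p does not show that *Col1a1* was alike in the sexes.

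The 3 fibrillar genes that were higher in females were the minor fibril chains *Col11a1*, *Col11a2* and *Col27a1*. *Col11a1* had a mean of 1.26 ± 1.43 TPM in females and 0.349 ± 0.232 TPM in males, a log2 fold change of 2.02 ± 0.21 (adjusted p = 3.5e-12), and was higher in the female library of 55 strains. *Col11a2* and *Col27a1* had 0.65 ± 0.20 and 0.23 ± 0.08. *Col24a1* was lower in females, at -0.35 ± 0.14 (adjusted p = 0.032).

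In the basement membrane network the pairs differed. *Col4a1* had means of 305 ± 165 TPM in females and 444 ± 187 TPM in males, a log2 fold change of -0.69 ± 0.12 (adjusted p = 8.2e-07), and was higher in the male library of 52 strains. *Col4a2* had -0.68 ± 0.12, with the male library higher in 49 strains. Of the pair on chromosome 1, which forms specialised membranes, *Col4a4* had -1.66 ± 0.13 (0.465 ± 0.313 and 1.31 ± 0.638 TPM), the largest decrease of any collagen gene, and *Col4a3* had -1.08 ± 0.08. The *Col4a3* value is on counts alone. Its mean level by counts was 3.13 ± 1.07 CPM in the female libraries and 6.80 ± 2.62 in the male ones, but its TPM was 5.27 ± 2.11 and 5.46 ± 2.57, because the counts behind 1 TPM of this gene differed between the sexes in the deposited values.

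The pair on the X chromosome went the other way. *Col4a6*, a chain of the basement membranes of smooth muscle and of some epithelia, had a median of 1.71 TPM (0.0295 to 8.19) in females and 0.0668 TPM (0 to 1.52) in males. Its highest male value came from the library labelled NZW/LacJ male, and without it the males reached 0.217 TPM. The log2 fold change was 4.66 ± 0.23 (adjusted p = 3.3e-26), and 129X1/SvJ was the 1 strain of 59 with the higher value in the male library. *Col4a5*, its neighbour, had 1.27 ± 0.13 (8.27 ± 5.33 against 2.99 ± 1.49 TPM, higher in the female library of 54 strains).

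The basement membrane zone split in the same way. *Col18a1*, the source of endostatin, had -0.87 ± 0.13 (42.003 ± 26.5 against 65.5 ± 25.9 TPM) and *Col15a1* had -0.56 ± 0.14, whereas *Col7a1*, which forms the anchoring fibrils under stratified epithelia, had 3.62 ± 0.22 (8.97 ± 8.73 against 0.794 ± 0.946 TPM). *Col7a1* was higher in the female library of 58 strains. Beaded filament genes were lower in females in 5 of 6 cases, with *Col6a1* at -0.46 ± 0.12, *Col6a2* at -0.56 ± 0.13, *Col6a3* at -0.57 ± 0.12, *Col6a5* at -0.63 ± 0.23 and *Col6a6* at -0.69 ± 0.13.

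*Col6a4* was the exception among beaded filament genes, at 1.73 ± 0.47 (adjusted p = 0.0013, higher in the female library of 40 strains), and its level ran with the lymphocyte markers described below. Of the 8 FACIT genes tested, 6 were higher in females, none was lower, and *Col12a1* and *Col22a1* did not pass. The type IX chains led. *Col9a2* had 2.78 TPM (0.129 to 20.5) in females and 0.0847 TPM (0 to 2.75) in males, a fitted log2 fold change of 5.34 ± 0.27 (adjusted p = 2.5e-25), and was higher in the female library of all 59 strains. Of the 74 male libraries 27 held 3 or fewer counts of it and 4 held none, so the size of that fold is uncertain. Without the 3 libraries that went against their label, *Col9a2* was at least 0.313 TPM in females and at most 1.68 TPM in males.

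*Col9a1* had a fitted log2 fold change of 5.59 ± 0.37, but 66 of 74 male libraries held 3 or fewer counts of it, so the size of this value depends on counts near 0. *Col9a3* had 3.16 ± 0.22 (6.02 ± 5.56 against 0.623 ± 0.494 TPM). *Col16a1* and *Col14a1*, FACIT collagens of loose connective tissue, had 1.10 ± 0.15 and 0.57 ± 0.12, and *Col20a1* had 0.29 ± 0.07. Type IX collagen is known from cartilage. The summed level of 5 cartilage markers had a median of 0.879 TPM (0.218 to 5.34) in females and 1.51 TPM (0.300 to 5.47) in males. Without the libraries that went against their label, females reached 2.44 TPM of these markers. Of the 2 that could be tested, *Comp* was lower in females (-1.16) and *Hapln1* did not pass, while *Acan*, *Matn1* and *Matn3* had medians of at most 0.0235 TPM. Their part in the type IX levels was not tested.

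*Col17a1*, the hemidesmosome collagen of basal epithelial cells, was the largest change among the transmembrane genes. It had 4.03 TPM (0.073 to 16.6) in females and 0.275 TPM (0.045 to 5.87) in males, a log2 fold change of 3.82 ± 0.20 (adjusted p = 1.5e-24), and was higher in the female library of all 59 strains. Without the 3 libraries that went against their label the female range was 0.596 to 16.6 TPM and the male range 0.045 to 2.19 TPM, which still overlap. *Col25a1* (0.91 ± 0.11) and *Col13a1* (0.64 ± 0.11) were also higher in females, and *Col23a1* did not pass. *Col8a2* and *Col8a1*, short chain collagens of vessel walls and Descemet's membrane, had 1.52 ± 0.11 and 0.36 ± 0.13, and *Col28a1* had -0.45 ± 0.11.

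These calls were made again without strains whose libraries were in doubt, which was chosen after seeing the data. Without NZW/LacJ, and without NZW/LacJ and PL/J, whose male libraries had 554 and 285 TPM of mammary markers, 18 genes were higher and 18 lower, beside 60.7% and 61.8% of all genes called. Leaving out the 3 strains with a library over 20% in mitochondrial counts gave 35 of 41 called, beside 56.2% of all genes. *Col27a1* no longer passed there. Without the 39 strains with a lymphocyte-rich library, 20 strains were left and 16 genes were higher and 13 lower out of 40 tested, beside 40.9% of all genes (19.5% higher and 21.4% lower). In that smaller fit *Col1a1* had 0.037 on the log2 scale, and *Col1a2* (-0.19), *Col3a1* (-0.27) and *Col28a1* (-0.42) kept their sign and no longer passed. *Col24a1*, *Col27a1*, *Col6a5* and *Col8a1* no longer passed either.

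**Figure D2:**
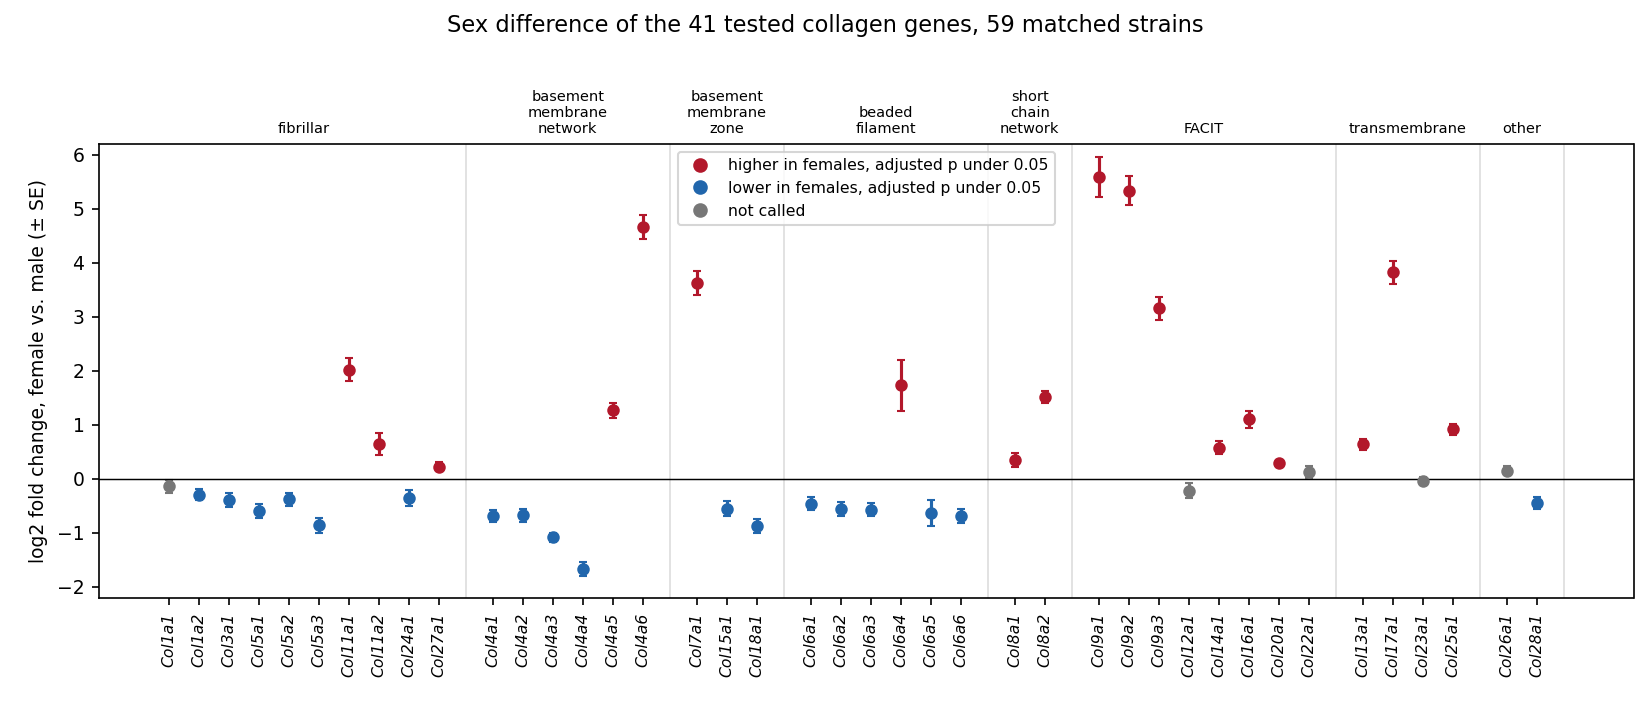
Log2 fold change, female over male, with its SE for the 41 tested collagen genes in 59 strains, grouped by class; red is higher and blue lower in females at an adjusted p under 0.05, and grey did not pass. The FACIT genes lie at or above 0 apart from Col12a1, Col9a1 is highest at 5.59 and Col4a4 lowest at -1.66.

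The sex difference of BXD strains was compared with that of classical inbred strains by an interaction term. Of 41 collagen genes none passed, and of all 16754 genes 0 did (0%) by edgeR and 0 by limma-voom. At an unadjusted p under 0.05 there were 541 genes in all and 1 collagen gene, *Col17a1* (p = 0.021). A sex difference that varied between these families was therefore not detectable with 26 BXD and 20 classical inbred strains.

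Of 45 genes that modify, cleave, crosslink, bind or recognise collagen, 44 could be tested in the same fit, and 13 were higher and 17 lower in females, against 28.4% and 29.8% of all genes. *Lox*, the lysyl oxidase that crosslinks collagen and elastin, had -1.004 ± 0.13 (56.6 against 96.1 TPM). *Mrc2*, an endocytic receptor that clears collagen fragments, had -0.97 ± 0.17, and the collagen-binding integrin chain *Itga1* had -0.53 ± 0.06. Among those higher in females were the procollagen protease *Adamts3* (2.78 ± 0.18, 0.888 against 0.152 TPM), the integrin chain *Itga2* (1.47 ± 0.12) and the prolyl hydroxylase subunit *P4ha3* (1.36 ± 0.17).

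By step, 7 of the 18 hydroxylation and folding genes were higher in females and 9 lower, including the collagen chaperone *Serpinh1* at -0.35 ± 0.10. Of 7 propeptide cleavage genes 2 were higher and 2 lower, and of 5 crosslinking genes 2 were lower and none higher. Among the fibril-binding proteoglycans *Lum* (0.55 ± 0.11) and *Fmod* (0.41 ± 0.15) were higher, *Bgn* (-0.36 ± 0.08) was lower and *Dcn* did not pass. Of 10 receptor and uptake genes 2 were higher and 3 lower. Scaling by library totals gave 16 higher and 13 lower over the list.

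Strain differences were tested over the same 59 strains, with the spread between the sexes within a strain, beyond the mean sex difference, as the error. *Col28a1* and *Col20a1* differed most between strains. Of 41 collagen genes 29 passed at an adjusted p under 0.05, beside 71.2% of all genes tested. The median F was 1.93 over the collagen genes and 1.92 over all genes, so as a group they varied between strains about as other genes did. Which genes passed depended on the strains included. Without NZW/LacJ 34 of 41 passed, beside 76.1% of all genes, with *Col1a1*, *Col3a1*, *Col5a1*, *Col6a1*, *Col6a2* and *Col23a1* now past the threshold and *Col7a1* no longer. Leaving out AXB19a/PgnJ and AXB19b/PgnJ gave 33, beside 71.9% of all genes. Leaving out the 3 strains with a library over 20% in mitochondrial counts also gave 33, beside 66.1%. In both of these *Col1a1*, *Col5a1*, *Col6a1* and *Col6a2* passed as well.

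*Col28a1*, on chromosome 6 (7997808 to 8192617, minus strand, GRCm38), encodes a collagen known from peripheral nerve. Its strain mean ran from 0.185 TPM in BXD12/TyJ over a median of 1.99 to 15.9 in BXD71/RwwJ, with F = 11.5 (adjusted p = 5.9e-16). The female and male libraries of a strain had like levels, with Pearson's r = 0.86 and Spearman's rho = 0.87 over 59 strains of log2 CPM (permutation p = 1e-05, the smallest the permutations can give, adjusted p = 0.00010) and r = 0.86 once the 2 most distant strains were dropped. BXD71/RwwJ had 7.21 TPM in the female and 24.6 in the male library, and BXD12/TyJ had 0.279 and 0.0915.

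Beside their progenitors, the recombinant strains spread widely. *Col28a1* stood at 6.57 TPM in C57BL/6J and 0.571 in DBA/2J, and of the 40 BXD strains 22 lay between these values, 7 below both and 11 above both. These are means over the libraries a strain has, and 14 of the 40 have 1 sex only. Of the 26 BXD strains with both sexes 14 lay between, 5 below and 7 above. A/J had 0.728 TPM, and of 11 AXB/BXA strains 8 lay between A/J and C57BL/6J, 1 below and 2 above, and of the 9 with both sexes 8 lay between and 1 below. Its strongest relations with a marker list were r = 0.24 with Schwann cell markers in females and r = -0.28 with epidermis markers in males, so no list tried ran closely with it.

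*Col20a1*, a FACIT gene on chromosome 2 (180986535 to 181018363, plus strand), had F = 7.35 (adjusted p = 1.6e-11). Strain means ran from 0.539 TPM in BXD14/TyJ over 1.28 to 6.05 in BALB/cJ, and female and male libraries correlated with r = 0.71 and rho = 0.55 (permutation p = 1e-05 and 2e-05, adjusted p = 0.00010 and 0.00021, r = 0.62 without 2 strains). The highest strains after BALB/cJ were SJL/J (4.58), SWR/J (4.57) and NZW/LacJ (4.08), all classical inbred. The NZW/LacJ mean joins 2.36 TPM in the female library and 5.80 TPM in the library labelled male, which went against its label. C57BL/6J had 1.41 and DBA/2J 2.16 TPM, and 35 of 40 BXD strains (22 of the 26 with both sexes) lay below both.

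*Col4a6* had F = 3.61 (adjusted p = 8.7e-06), with strain means from 0.0169 TPM in CXB11/HiAJ to 4.17 in KK/HlJ and r = 0.49 between the sexes (rho = 0.38, permutation p = 8e-05 and 0.0027, adjusted p = 0.00052 and 0.0091, r = 0.50 without 2 strains). *Col6a6*, a beaded filament gene, had F = 3.01, from 0.251 TPM in BXD14/TyJ to 4.85 in BXD85/RwwJ. *Col13a1* had F = 2.99 and *Col14a1* F = 2.95, and both were lowest in CXB11/HiAJ (0.424 and 4.53 TPM) and highest in SM/J (4.19 and 53.5 TPM). On the log2(TPM + 1) scale *Col4a6* no longer passed, with F = 1.28. Mammary markers differed between these strains too, with a summed level of 4572 TPM in the KK/HlJ, 2385 in the SM/J and 173 in the CXB11/HiAJ female library, and of 1.37, 1.92 and 0.423 TPM in the male ones. In females *Col4a6* and *Col13a1* ran with that sum (rho = 0.74 and 0.67), and its part in the strain differences was not tested. The low strains BXD14/TyJ and CXB11/HiAJ each had a library high in mitochondrial counts, at 25.8% in the BXD14/TyJ female and 25.1% in the CXB11/HiAJ male. The part of this share in the low values was not tested.

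The 12 collagen genes whose strain differences did not pass included the abundant *Col3a1* (F = 1.43), *Col1a1* (F = 1.46), *Col5a1* (F = 1.45), *Col15a1* (F = 1.37), *Col6a1* (F = 1.52) and *Col6a2* (F = 1.49), of which *Col15a1* alone also missed the threshold without NZW/LacJ. *Col1a1* ran from 80.7 TPM in BXD40/TyJ to 470 in CE/J as strain means, but the sexes of a strain correlated with r = 0.19 (rho = 0.30, permutation p = 0.15 and 0.020, adjusted p = 0.20 and 0.041). *Col9a1* (F = 2.13) and *Col9a2* (F = 2.61) passed the strain test, although their female and male libraries had r = -0.12 and 0.09, and most male values of *Col9a1* were near 0. Over the 41 genes 21 had an adjusted p under 0.05 for r, beside 51.9% of all genes, with a median r of 0.30 in both sets. Leaving out NZW/LacJ and the lines AXB19a/PgnJ and AXB19b/PgnJ, which share a name with AXB19/PgnJ, raised that number to 31, and the share of all genes to 59.8%.

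**Figure D3:**
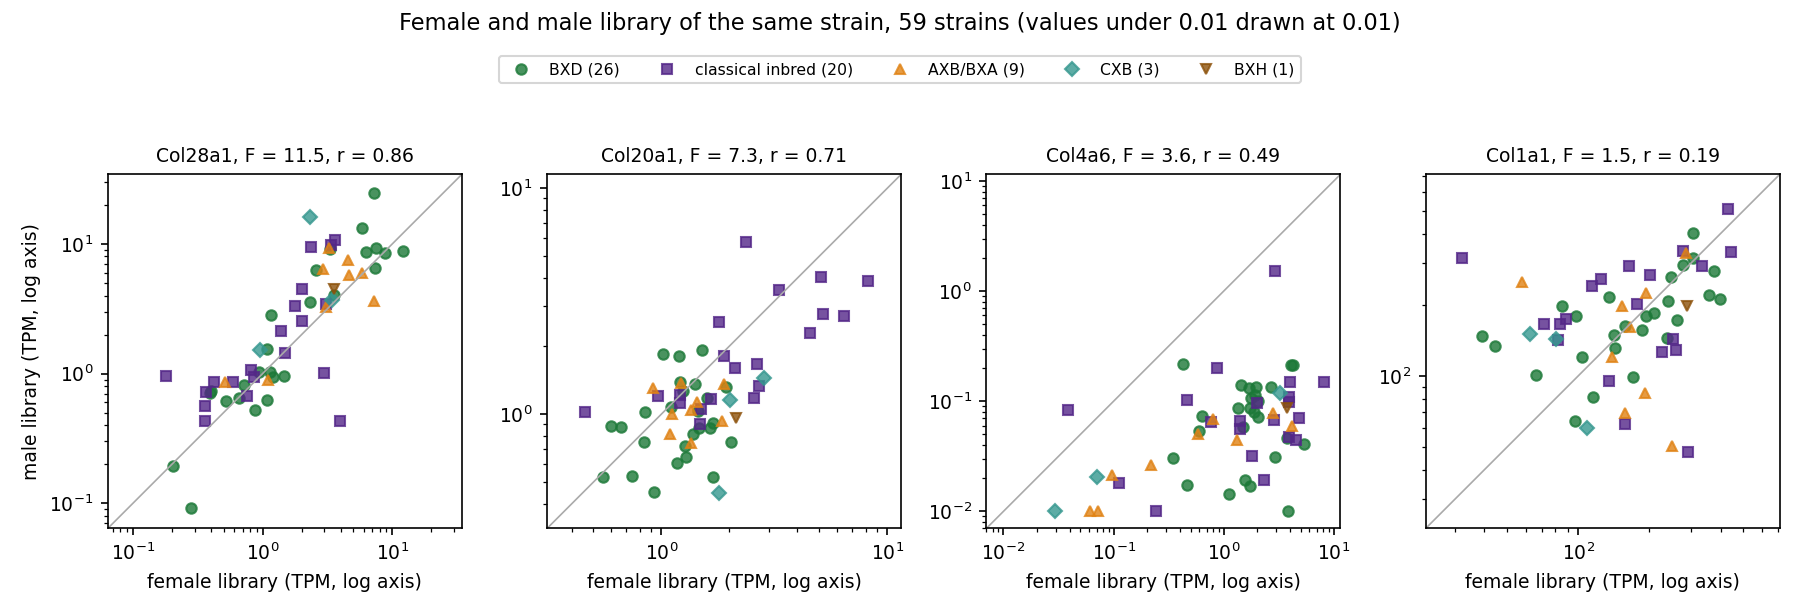
TPM of 4 collagen genes in the female (horizontal) and male (vertical) library of each of 59 strains, both on log axes, by strain family; the line marks equal levels, and values under 0.01 are drawn at 0.01. Col28a1 and Col20a1 follow the line (r = 0.86 and 0.71 of log2 CPM), Col4a6 lies below it in 58 strains, and Col1a1 scatters around it (r = 0.19).

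Families of strains were compared on the summed counts of both sexes of a strain. Against the 20 classical inbred strains, the 26 BXD strains had lower *Col20a1*, *Col11a2*, *Col11a1* and *Col9a1* and higher *Col22a1*. These 5 of 44 collagen genes stand beside 11.7% of all 20580 genes tested (4.62% higher and 7.12% lower), so the share is close to that over all genes. *Col20a1* had a mean of 1.12 ± 0.313 TPM in BXD and 2.50 ± 1.49 TPM in classical inbred strains (SD), a log2 fold change of -0.97 ± 0.15 (adjusted p = 4.7e-06). *Col11a2* had -1.16 ± 0.27 (0.737 ± 0.458 against 1.59 ± 1.13 TPM, adjusted p = 0.0029). The strains of both families overlapped in both genes, with BXD at 0.539 to 1.72 and classical inbred strains at 0.741 to 6.05 TPM of *Col20a1*.

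*Col11a1* (-0.81 ± 0.24), *Col9a1* (-1.46 ± 0.47) and *Col22a1* (0.72 ± 0.18, 0.240 ± 0.102 against 0.185 ± 0.0842 TPM) passed with adjusted p from 0.0050 to 0.035, but each missed the threshold under limma-voom or on a log2 TPM scale. The female mammary marker sum, with which *Col9a1* and *Col11a1* ran in females (rho = 0.76 and 0.64), was lower in BXD strains as well, at a median of 472 TPM (98.1 to 2445) against 1139 TPM (202 to 4572) in classical inbred strains. Its part in these differences was not tested. Between AXB/BXA and BXD strains 1 of 44 collagen genes passed, beside 4.0% of all genes (2.60% higher and 1.4% lower). It was *Col2a1* (1.73 ± 0.43), at 0.0877 ± 0.0367 TPM in 9 AXB/BXA and 0.0330 ± 0.0430 in BXD strains, where most libraries held 3 or fewer counts. Without AXB19a/PgnJ and AXB19b/PgnJ it was 1.49 and no longer passed. Without NZW/LacJ the same numbers of genes passed in both family comparisons, and *Col20a1* had -0.94 between BXD and classical inbred strains. BXH had 1 strain with both sexes and was not tested.

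Chains that assemble into one trimer or fibril were compared across the libraries of each sex. *Col4a1* and *Col4a2*, whose promoter windows share 78 bases, ran most closely together, and *Col11a1* and *Col11a2* had no relation that passed. The 13 pairs in 2 sexes gave 26 relations, of which 22 passed at an adjusted p under 0.05 (permutation test, 100000 draws, where 1e-05 is the smallest p they can give). Libraries share depth and cell composition, so these are relations between levels in whole tissue.

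*Col4a1* and *Col4a2* had r = 0.993 over 67 female and r = 0.989 over 74 male libraries of log2 CPM (rho = 0.988 and 0.984), with a median TPM ratio of 1.61 and 1.56. *Col6a1* and *Col6a2* had r = 0.988 and 0.985 (rho = 0.987 and 0.983), and *Col6a1* with *Col6a3* r = 0.933 and 0.915. The type I chains *Col1a1* and *Col1a2*, which join as a heterotrimer, had r = 0.912 in females and 0.954 in males (rho = 0.911 and 0.935), with a median ratio of *Col1a1* to *Col1a2* of 0.851 and 0.780 in TPM. Each of these 8 relations had an adjusted permutation p of 1.4e-05. *Col1a1* and *Col3a1* had r = 0.928 in females and 0.941 in males. In type V, r was 0.942 and 0.920 for *Col5a1* and *Col5a2*, and 0.846 and 0.787 for *Col5a1* and *Col5a3*.

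The X-linked pair *Col4a5* and *Col4a6* had r = 0.658 in females and 0.573 in males (rho = 0.827 and 0.581), and a median TPM ratio of 3.94 and 45.8. *Col4a3* and *Col4a4* had r = 0.562 and 0.871 in log2 CPM, but -0.036 and 0.047 in log2(TPM + 1), and in females r was 0.73 without the 2 libraries farthest from the median. *Col6a5* and *Col6a6* had r = 0.471 and 0.472. *Col9a1* and *Col9a2* had r = 0.807 in females, and in males 0.571 (rho = 0.181), with 0.380 when 2 libraries were left out. *Col8a1* and *Col8a2* (0.133 and 0.216) and *Col11a1* and *Col11a2* (-0.083 and -0.092) did not pass in either sex.

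Without the 3 libraries that went against their label 23 of 26 relations passed. The added one was *Col8a1* and *Col8a2* in females (r = 0.380), and *Col11a1* and *Col11a2* had r = 0.159 in females and -0.153 in males, neither of which passed. Within the libraries low or high in lymphocyte markers, taken separately in each sex, *Col4a1* and *Col4a2* had r of at least 0.979 and *Col1a1* and *Col1a2* of at least 0.892. *Col8a1* and *Col8a2* had -0.0857 and 0.391 in the low and high female libraries and -0.0743 and 0.470 in the male ones.

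**Figure D4:**
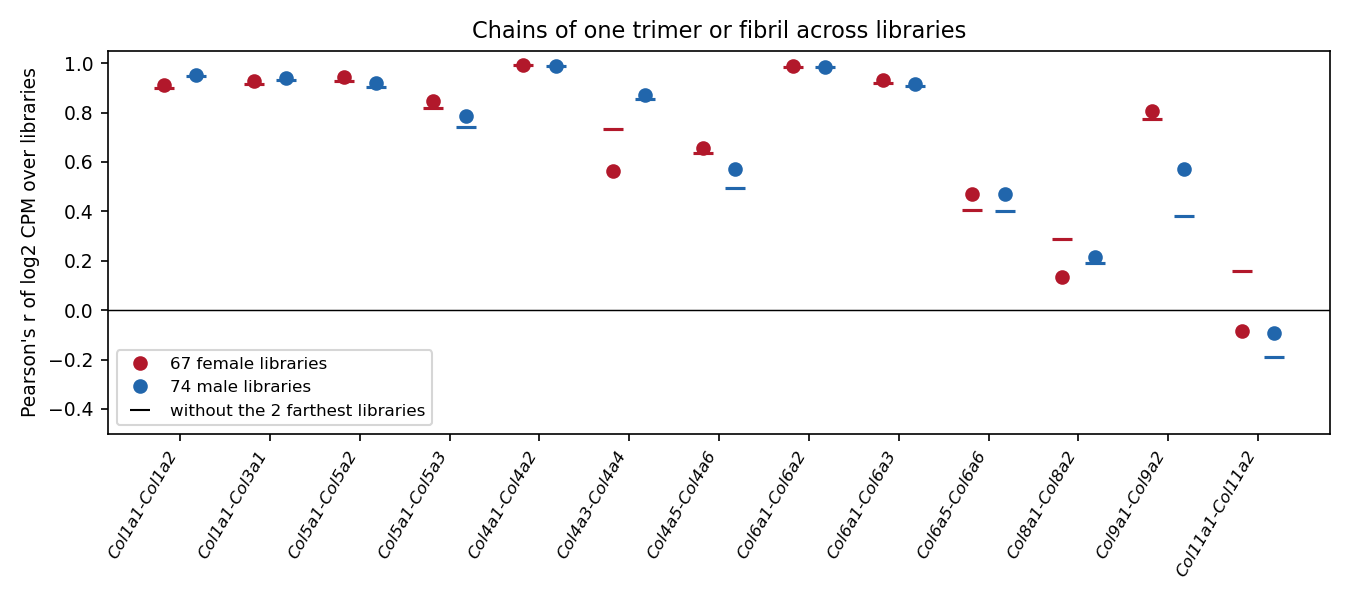
Pearson's r of log2 CPM between 2 collagen chains over 67 female (red) and 74 male (blue) libraries; points are all libraries and bars leave out the 2 libraries farthest from the median. Col4a1 and Col4a2 (0.993 and 0.989) and Col6a1 and Col6a2 (0.988 and 0.985) lie nearest to 1, and Col11a1 and Col11a2 lie near 0.

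Levels of collagen genes were set beside summed marker levels of 11 cell types in each sex. In females *Col7a1*, *Col17a1* and the type IX chains ran most closely with mammary epithelium markers, and *Col4a1*, *Col4a2*, *Col15a1*, *Col18a1*, *Col5a1*, *Col5a3*, *Col6a1*, *Col6a2* and *Col6a3* with adipocyte markers. The strongest female relation of *Col1a1*, *Col1a2*, *Col3a1* and *Col5a2* was with mural markers. Of 902 relations of 41 genes with 11 lists in 2 sexes, those with the largest r are described. The relations named here over all libraries of a sex had an adjusted permutation p of 6.4e-05, except some of those with the adipocyte sum in males. There it went up to 0.0028 (*Col6a2*). Relations within a cluster, or with libraries left out, carry no p.

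In 67 female libraries *Col7a1* had r = 0.83 with the mammary sum (rho = 0.83, 0.82 without the 2 farthest libraries), *Col9a3* 0.81 (rho = 0.85), *Col9a2* 0.79 (rho = 0.83) and *Col17a1* 0.79 (rho = 0.70). The 2 farthest were the libraries labelled BXD34/TyJ and BXD69/RwwJ female, and without them the values were 0.82, 0.84, 0.84 and 0.70. *Col9a1* had 0.64, and 0.80 without them. In males, the library labelled NZW/LacJ male had 554 TPM of mammary markers and the highest male value of *Col17a1* (5.87 TPM), *Col7a1* (5.97), *Col9a2* (2.75), *Col9a3* (3.20), *Col4a6* (1.52) and *Col9a1* (0.789).

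With the adipocyte sum in females, *Col15a1* had r = 0.81 (rho = 0.75), *Col5a3* and *Col5a1* 0.77, *Col4a2* 0.77, *Col4a1* 0.76, and *Col18a1* and *Col6a2* 0.75. Without the libraries labelled BXD34/TyJ and BXD69/RwwJ female these were 0.83 for *Col15a1* and *Col5a3*, 0.78 for *Col5a1*, 0.81 for *Col4a2* and *Col4a1*, 0.82 for *Col18a1* and 0.77 for *Col6a2*. In males the same genes had r from 0.38 (*Col6a2*) to 0.54 (*Col18a1*) with the adipocyte sum. Within the male libraries low in lymphocyte markers r was negative for each of them, from -0.49 (*Col15a1*) to -0.12 (*Col18a1*), and within those high in them it was 0.20 (*Col6a2*) to 0.42 (*Col4a1*), so the pooled male values do not hold within both clusters. In males *Col4a2* had r = 0.78 (rho = 0.80) and *Col4a1* 0.73 (rho = 0.76) with the sum of mural cell markers, the pericytes and smooth muscle of vessels. *Col5a2*, *Col3a1* and *Col1a1* had r = 0.71, 0.71 and 0.70 with macrophage markers in males (rho = 0.74, 0.74 and 0.73), and within the libraries low and high in lymphocyte markers *Col3a1* had 0.73 and 0.67. *Col11a1* had 0.72 (rho = 0.75) and *Col24a1* 0.64 with Schwann cell markers in males.

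The lymphocyte sum split the libraries of each sex into a low and a high cluster, so no pooled r is given. In females 35 libraries had 2.88 to 39.4 TPM and 32 had 129 to 971, and in males 43 had 2.40 to 55.6 and 31 had 89.7 to 695. *Col6a4* had a median of 0.0776 TPM (0 to 0.577) in the low and 6.61 TPM (0.965 to 18.7) in the high male libraries, which did not overlap, and 0.509 (0.0466 to 2.70) and 6.44 TPM (0.979 to 19.02) in the female ones, which did. Within the high cluster its r with the lymphocyte sum was 0.48 in females and 0.66 in males, and within the low cluster 0.19 and 0.50.

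*Col11a2* was likewise higher where lymphocyte markers were high, with medians of 1.52 against 0.438 TPM in females and 1.401 against 0.356 TPM in males. Abundant chains of types I, III and V, *Col4a1*, *Col4a2*, *Col15a1*, *Col18a1* and *Col6a1* to *Col6a3* had lower medians there in both sexes, while *Col4a3* and *Col7a1* had higher ones. *Col3a1* had 872 against 1174 TPM in females and 936 against 1585 TPM in males, and *Col18a1* 28.4 against 56.1 and 53.2 against 78.96 TPM. These clusters were formed from the data and are not groups of the study, so the values carry no test, and the part of lymphocytes in them was not tested.

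**Figure D5:**
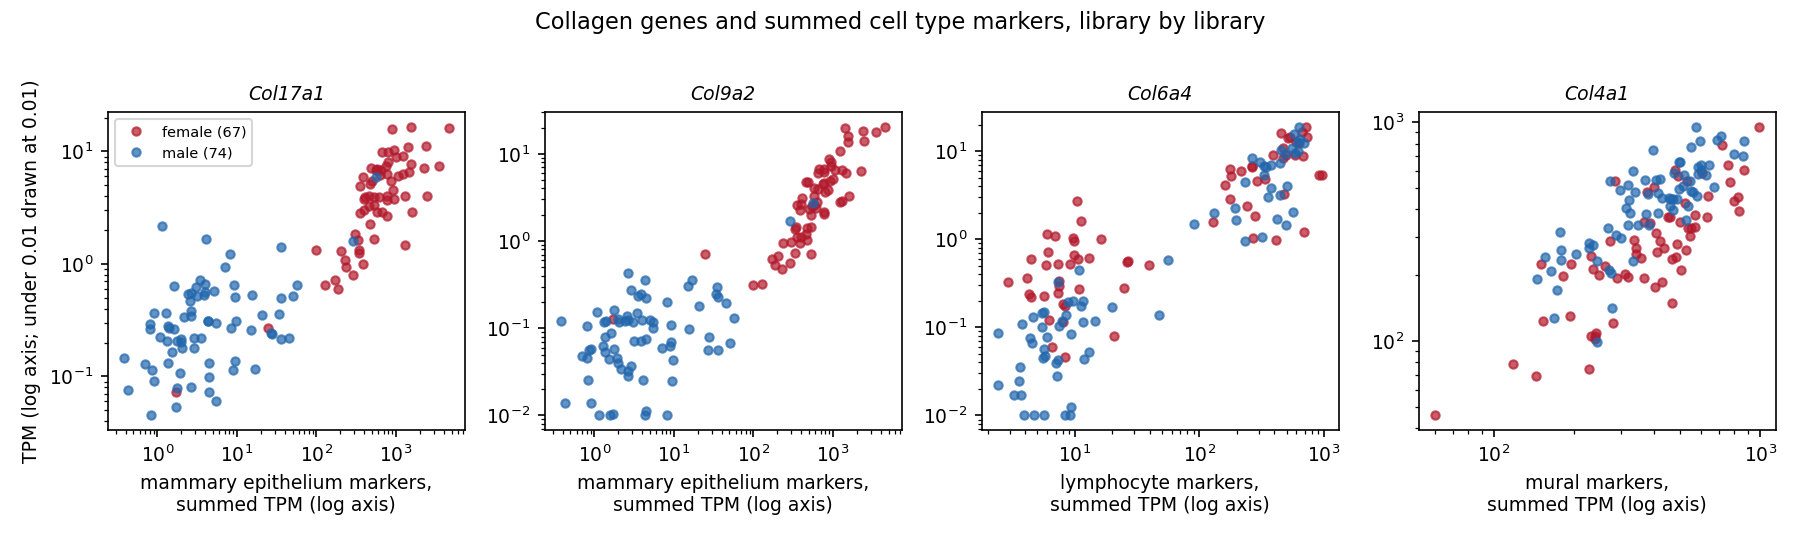
TPM of 4 collagen genes (vertical, log axis, values under 0.01 drawn at 0.01) against the summed TPM of a marker list (horizontal, log axis) in 67 female (red) and 74 male (blue) libraries. Col17a1 and Col9a2 are higher in females with more mammary epithelium marker RNA, Col6a4 is higher in the libraries rich in lymphocyte markers, and Col4a1 follows mural markers in both sexes.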

How the data were processed

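Per the labels and the study's methods, the authors made stranded, paired-end libraries from polyadenylated RNA, quantified them with kallisto 0.46.1 on Ensembl release 97 (GRCm38) and summarised transcripts to genes with tximport. The deposited tables hold estimated counts, of which 30.3% are not whole, and TPM for 36558 genes. Counts were rounded before the count tests. How the authors' processing divides reads between isoforms changes the counts behind 1 TPM.

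Sex and strain were tested with edgeR 4.0.16 (TMM scaling, low counts removed by filterByExpr, quasi-likelihood test, Benjamini-Hochberg adjustment over all genes tested, threshold 0.05) in 118 libraries of 59 strains, with strain and sex as terms. Families were compared on counts summed over both sexes of a strain, and the interaction added BXD membership. Fitted fold changes used the default prior count of edgeR, and log2 CPM used a prior count of 2. Correlations used log2 CPM and two-sided permutation tests with 100000 draws. limma 3.58.1 and DESeq2 1.42.0 (R 4.3.3) were alternatives, as were other scalings, filters and left-out strains. Python 3.11.15, pandas 2.3.3 and scipy 1.17.1 were used. The design pairs a strain's sexes through the shared inbred strain: the deviations of the 2 libraries had a median r of 0.55, over 0.1 in 45 of 59 strains. In tests on simulated counts, the sex comparison recovered 100% of 191 changed genes among 17280, with 4.02% of its calls false, and the comparison of BXD with classical inbred strains recovered 100% of 200 among 18440, with 6.1% of its calls false. Every simulated gene had the same dispersion, few were changed and cell composition did not vary. In the real data 58.1% of genes were called for sex, so these shares check the code and are not error rates of the data.

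Depth ran from 6269154 to 78562648 counts per library, and counts of 3 or fewer were taken as the detection limit. The study's methods give a range of 1 to 4 samples for a sex and strain, where the labels here give 1 library with 1 mouse number. Which of these a library stands for is not settled, so p-values measure the spread between libraries. Genes named with full values were the 10 with the highest median TPM, the 6 largest called changes in each direction of a comparison, the 6 largest strain F values, the chain pairs, and the 3 largest changes in each direction in the list of collagen-modifying and binding genes; Serpinh1, Lum, Fmod, Bgn and other genes were added after their values were seen. The members and lists were chosen with earlier results of these data known.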

Additional observations from a re-analysis of the deposited data

Results flagged for a closer look

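In 6 collagen genes the library labelled AXB12/PgnJ female was far below the other 8 female libraries of its family (AXB/BXA), by the gap to the nearest library as a share of the whole range. *Col1a1* was 58.02 TPM there against 139.2 to 286 in the others, and *Col5a1* 12.9 against 31.02 to 92.6. *Col5a2* was 18.2 TPM against 45.5 to 105.8, and *Col5a3* 12.4 against 54.5 to 191. *Col6a3* was 44.5 TPM against 89.1 to 235, and *Col15a1* 41.8 against 139.4 to 519. All are fibrillar, beaded filament or basement membrane zone chains. The same library had the highest lymphocyte (971 TPM), stromal progenitor (1121 TPM) and macrophage (399 TPM) marker sums among the females. Its adipocyte marker sum was 6514 TPM, against 21007 to 48857 TPM in the other 8, and was lower in 1 other female library, the one labelled BXD34/TyJ. The part of these cells in the values was not tested. The rule was applied to 41 genes in 9 libraries and marks about 1 in 20 by chance when genes are independent, and here the 6 genes share 1 library.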

How the results depend on the processing

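The count of collagen genes higher in females was 9 to 19 and of those lower 13 to 19 over the alternatives, with 9 higher when at least 10 counts in every library were required, since fewer genes were then tested. Without the replicate block that pairs the sexes of a strain, 16 were higher and 15 lower (11 and 16 in the list of modifying and binding genes). *Col1a1* turned to 0.037 without lymphocyte-rich strains, and *Col4a3* to 0.056 with no replicate block and all libraries; the cause was not tested. On the log2(TPM + 1) scale r turned to -0.036 for *Col4a3* and *Col4a4* in females and to 0.046 for *Col11a1* and *Col11a2* in males. The sex call of *Col1a2* held in 12 of 17 alternatives, of *Col24a1* and *Col6a5* in 10 of 16 each, of *Col6a4* in 12 of 15 and of *Col4a3* in 14 of 17. Strain differences were called for 20 to 37 genes, likeness of the sexes for 20 to 31 and chain pairs for 21 to 23.

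BXD against classical inbred strains gave 2 higher and 2 lower by limma-voom, 0 higher at log2(TPM + 1), 0 higher and 2 lower at log2(TPM + 0.1), and 3 higher in females alone. AXB/BXA against BXD gave 0 higher with at least 10 counts in every library, at log2(TPM + 1), at log2(TPM + 0.1), without AXB19a/PgnJ and AXB19b/PgnJ and in females alone, and 1 lower in males alone. The cause was not tested. Depth limits *Col9a1* and *Col2a1*, whose medians over all libraries were 3 and 2 counts.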
